A study of Mus musculus with 2 samples.

Results

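Liver RNA sequencing of SRSF2-KO and WT mice was examined here for 38 genes of the cell cycle and of DNA replication, out of 34556 gene symbols in the deposited table. The genes were listed by symbol, from the cyclins and their kinases through the replication helicase to the genes of mitosis, and all 38 were found, each in 1 row. The table holds 1 library per genotype, from BALB/c mice aged 5 months: a wild type (WT) and a liver-specific knockout of Srsf2, written SRSF2-/- and SRSF2-KO in the labels. The sources used here give neither the Cre driver nor the deleted exons, nor the number of animals behind each library. With 1 library in each group no difference has a replicate check, so differences are described without tests. Values are the authors' FPKM, a fragment count divided by the length of the transcript and by sequencing depth.

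Srsf2, which codes for an SR protein that directs the choice of splice sites, was not lower in the SRSF2-KO-labelled library. It stood at 45.3 FPKM there and at 38.2 FPKM in the WT-labelled library, so the ratio was 1.19 and its 95% counting interval (exact, Clopper-Pearson) 1.10 to 1.29. The value covers the whole gene, so it cannot show whether part of it was deleted, and each direction below is between libraries as labelled. Of the hepatocyte markers, Apoa1, the main apolipoprotein of HDL, was at 8305 and 10940 FPKM in the SRSF2-KO-labelled and WT-labelled libraries. Alb and Serpina3k, which every liver expresses at high levels, were listed at 0 in both, so a 0 in this table can be a failed estimate; none of the 38 genes was listed at 0. Low FPKM values stepped in whole reads, which gave about 24400000 fragments for the SRSF2-KO-labelled library and 19400000 for the WT-labelled library. Counting intervals, given in parentheses after a ratio, are 95% exact intervals from reads estimated with these depths and cover counting error only. The deposited FPKM summed to less in the SRSF2-KO-labelled library. Rescaling to equal sums outside the 50 most abundant rows (equal-sum scaling below) or to TPM multiplies every ratio by 1.22 or 1.27. A ratio between 0.785 and 1 as deposited thus lies above 1 after TPM rescaling.

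A dividing cell passes from G1, where D-type cyclins with Cdk4 and Cdk6 inactivate the retinoblastoma protein and release E2F factors, into S phase, where the Mcm2-7 helicase unwinds DNA for copying. Cyclin A and cyclin B with Cdk1 then drive G2 and mitosis, and the anaphase-promoting complex ends mitosis by destroying the cyclins. Most hepatocytes of an adult liver are quiescent, many are polyploid, and they re-enter the cycle after tissue loss or injury, when cyclin D1 is induced early.

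The genes of G2 and mitosis were higher in the SRSF2-KO-labelled library, whereas those of G1 and of replication had smaller ratios, on both sides of 1. Of the 15 genes of G2, mitosis and proliferation marking, 14 had ratios of 2 or more, up to 14.8, and the median ratio was 3.22. Of the other 23 genes, 3 were at least 2-fold higher (Ccnd1, Cdkn2c and Mcm6) and 1, Ccne2, was at least 2-fold lower, with a median ratio of 1.30. Over all 38 genes this made 17 (44.7%) higher and 1 lower, against a background of 13.2% higher and 5.51% lower among 12622 genes with at least 10 estimated reads over both libraries. Low genes as a whole leaned the same way: of the 6651 with a mean under 5 FPKM, 21.7% were at least 2-fold higher and 6.44% lower, and their median ratio was 1.17. Under that limit 14 of 14 genes of G2 and mitosis and 2 of 17 of the others were at least 2-fold higher. The 14 stood lower, with a median of 0.401 FPKM in the WT-labelled library against 1.435 FPKM for the 17. That level is also the denominator of the ratio, and in the SRSF2-KO-labelled library the medians lay closer, at 1.288 and 1.858 FPKM. Role and level are thus not separated here. The division by role and the plain ratio were taken up after values had been seen. After TPM rescaling the counts were 14 of 15 for G2 and mitosis and 6 of 23 for the others, where the background was 19.3% higher and 3.10% lower. In bulk tissue, fewer cells of a type and less RNA per cell cannot be told apart, and a level here is an average over all liver cells.

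A measure that damps low values, log2((SRSF2-KO + 1)/(WT + 1)) of FPKM, gave a smaller contrast. Of the 38 genes, 32 reached 1 FPKM in at least 1 library, 27 of these lay above 0 and 5 below, and the median was 0.42, beside -0.04 over all 11428 such rows. Of all those rows 46.1% lay above 0. Of the 32, 10 passed only through the SRSF2-KO-labelled library and 1 only through the other, which fixed their direction; of the 21 with 1 FPKM in both, 17 lay above 0 and 3 reached a log2 ratio of 1. The genes at a log2 ratio of 1 or more numbered 5 (Cdc20, Ccnd1, Cdk1, Ccna2 and Ube2c) and none was at -1 or less, where the background was 5.49% and 3.22%. Among rows whose higher library lay between 1 and 5 FPKM the background was 5.90% and 1.51%, with a median of 0.10, and 4 of the 24 genes in that range reached a log2 ratio of 1. In the same range 60.5% of all rows and 22 of the 24 genes lay above 0. The 6 genes that stayed under 1 FPKM in both libraries were E2f8, Foxm1, Plk1, Aurkb, Bub1 and Bub1b.

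**Figure D1:**
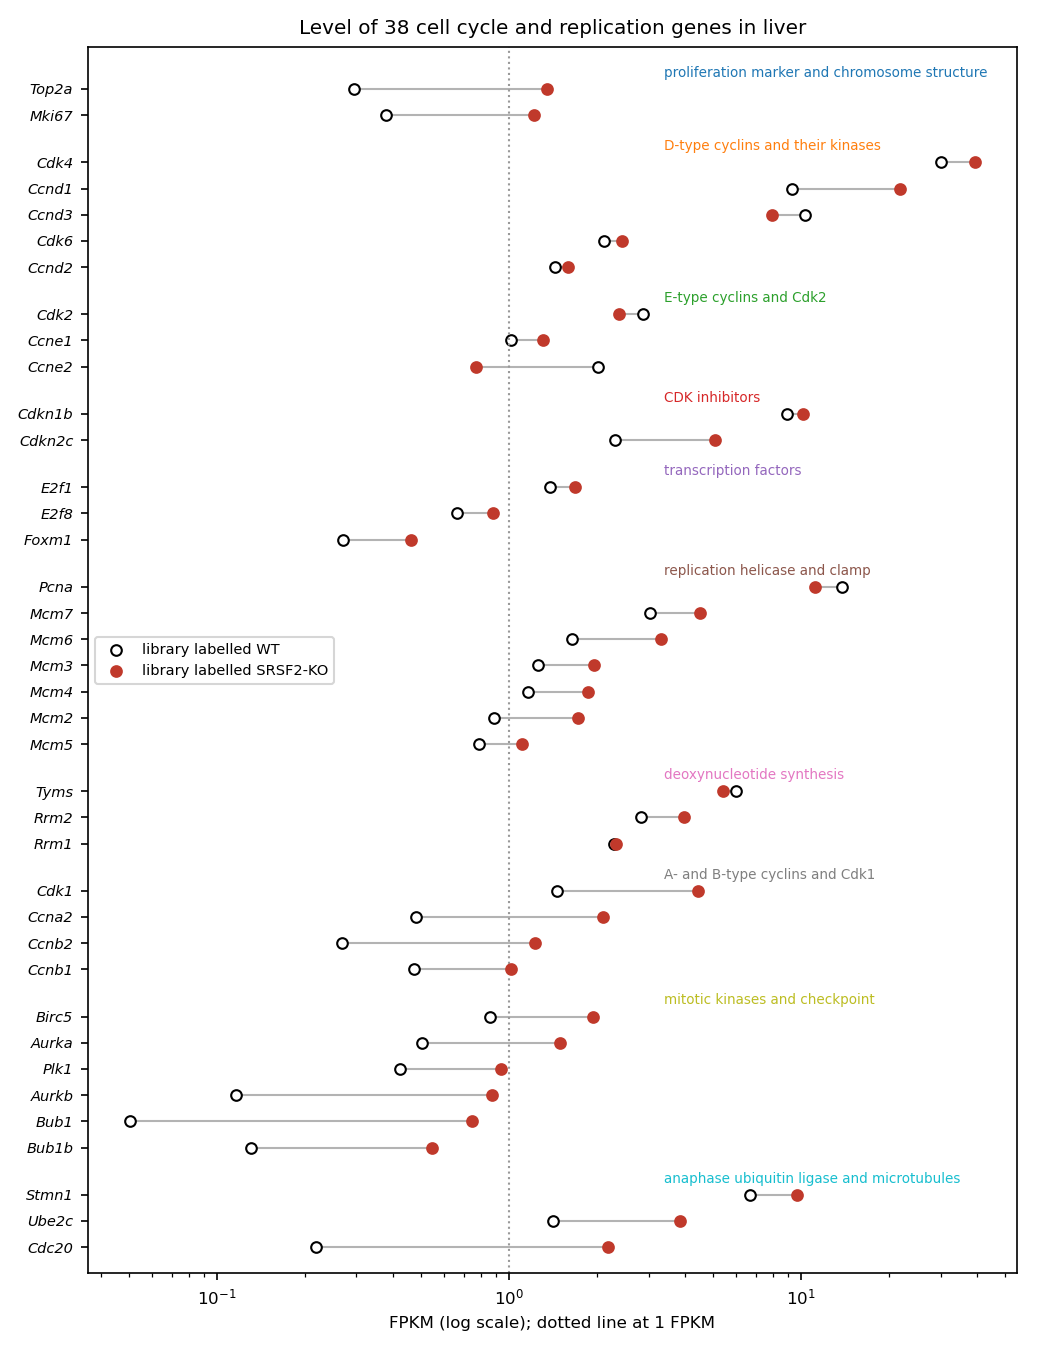
FPKM of the 38 genes on a log scale, with open circles for the library labelled WT, filled circles for the library labelled SRSF2-KO and a line joining the pair, grouped by role. Most genes of mitosis sit under 1 FPKM in WT and near or above it in SRSF2-KO, while Cdk4 is the most abundant gene in both, at 39.2 and 30.1 FPKM.

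The proliferation genes Mki67 and Top2a were both higher in the SRSF2-KO-labelled library. Mki67, which codes for the Ki-67 protein that coats mitotic chromosomes, stood at 1.22 FPKM against 0.378 in the WT-labelled library, a ratio of 3.22 (counting interval 2.22 to 4.67). Top2a, the topoisomerase that untangles sister DNA, stood at 1.35 against 0.295 FPKM, a ratio of 4.58 (3.05 to 7.01).

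The A- and B-type cyclins and their kinase were higher as well. Cdk1, the kinase of mitotic entry, was at 4.43 FPKM in the SRSF2-KO-labelled library and 1.46 FPKM in the other, a ratio of 3.03 (2.04 to 4.76). Ccna2, the cyclin A of S phase and G2, was at 2.10 against 0.478 FPKM, a ratio of 4.38 (2.79 to 7.49). Ccnb2 was at 1.22 against 0.269 FPKM and Ccnb1, the other mitotic cyclin B, at 1.01 against 0.473 FPKM. Their ratios were 4.56 (2.01 to 12.0) and 2.14 (1.21 to 3.87), so the estimate for Ccnb1, on 48 and 18 reads, reaches down close to equality. Together these 4 genes summed to 8.76 FPKM against 2.68.

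All 6 genes of the mitotic kinases and the spindle checkpoint had ratios above 2, from very low levels. Bub1, a checkpoint kinase at kinetochores, was at 0.745 against 0.0504 FPKM, which corresponds to about 59 and 3 reads and a ratio of 14.8 (5.10 to 78.0). Aurkb, the kinase of the chromosomal passenger complex, was at 0.870 against 0.116 FPKM, a ratio of 7.49 (2.57 to 27.7) on 36 and 4 reads. Bub1b, the checkpoint protein BubR1, had a ratio of 4.18 (1.97 to 9.44). Aurka, which matures the spindle poles, was at 1.496 against 0.504 FPKM, a ratio of 2.97 (1.70 to 5.37). The smallest ratios were those of Birc5 (survivin, a partner of Aurkb) at 2.27 (1.49 to 3.44) and of Plk1, the polo-like kinase, at 2.20 (1.05 to 5.14). The direction was the same in all 6, but the size of each is known only within wide counting limits.

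Cdc20, the activator that brings the anaphase-promoting complex to its substrates, showed the highest log2 ratio of the 32 genes that reached 1 FPKM, at 1.38. It stood at 2.18 FPKM in the SRSF2-KO-labelled library and 0.218 FPKM in the WT-labelled library, a ratio of 9.99 (4.54 to 25.02). Ube2c, the ubiquitin-conjugating enzyme of the same complex, was at 3.85 against 1.41 FPKM, a ratio of 2.73 (1.90 to 4.04). Stmn1 (stathmin), a microtubule-destabilising protein that non-dividing cells also make, was the exception among the 15, at 9.66 against 6.67 FPKM and a ratio of 1.45 (1.12 to 1.89).

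**Figure D2:**
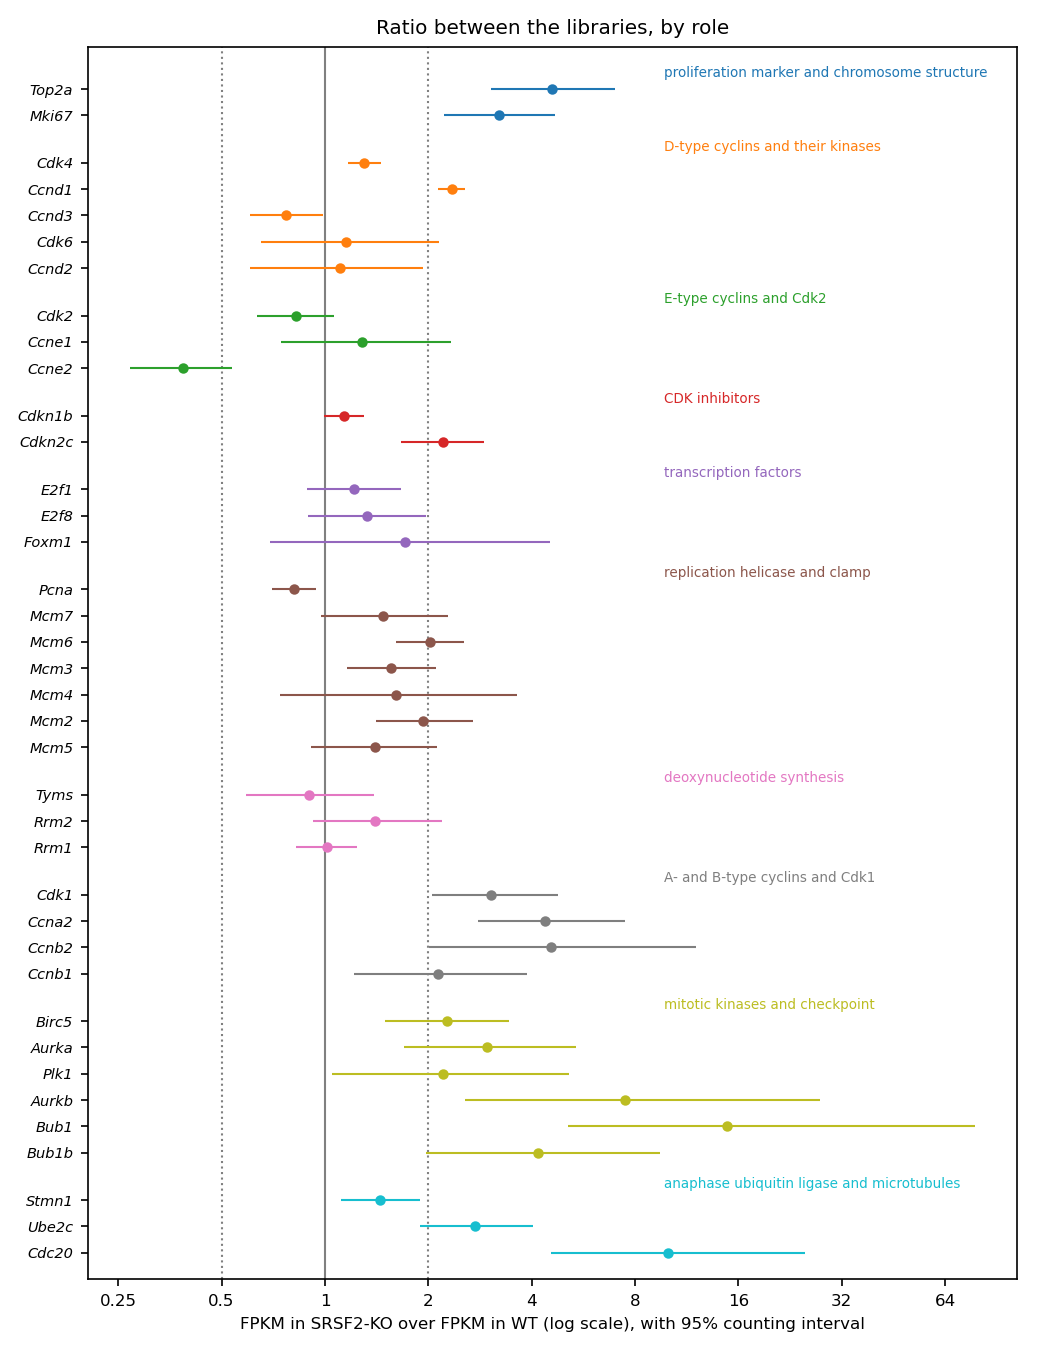
FPKM in SRSF2-KO over FPKM in WT for each of the 38 genes, on a log scale, with points for the ratio and bars for the 95% counting interval, grouped by role; the solid line marks 1 and the dotted lines 0.5 and 2. The A- and B-type cyclins, the mitotic kinases and Cdc20 lie to the right of 2, while the replication helicase lies between 1.40 and 2.03 and Ccne2 lies left of 0.5.

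Mitotic genes share promoter elements, the CHR (cell cycle genes homology region), through which the DREAM and MuvB complexes act, and CCAAT boxes, which bind NF-Y; many genes of S phase instead carry sites for E2F. Windows from 250 bases before to 50 bases after the start of a gene, from RefSeq for GRCm38.p6, were available for 30 of the 38 genes. They were searched on both strands for the CHR (TTTGAA or TTTAAA), the CCAAT box (CCAAT) and E2F sites (TTTCCCGC or TTTGGCGC), and matches of different motifs overlapped in 0 places. The windows of Cdc20 and Cdk1 are shown because these are among the 4 genes with the highest log2 ratios. Ccnd1 and Ccna2, also among these 4, and Ccne2, the gene with the lowest log2 ratio, were chosen too but had no window. Bub1, Ccnb2 and Mcm6 were added after their values were seen, as the gene with the highest plain ratio, another mitotic gene and a replication gene. Each reads 5′ to 3′ on the strand of the gene, with matches on either strand in capitals (a CCAAT box on the opposite strand appears as ATTGG). Cdc20 is at chr4:118437294-118437593, minus strand, Cdk1 at chr10:69352863-69353162, minus strand, Bub1 at chr2:127831810-127832109, minus strand, Ccnb2 at chr9:70421505-70421804, minus strand, and Mcm6 at chr1:128359656-128359955, minus strand.
Cdc20: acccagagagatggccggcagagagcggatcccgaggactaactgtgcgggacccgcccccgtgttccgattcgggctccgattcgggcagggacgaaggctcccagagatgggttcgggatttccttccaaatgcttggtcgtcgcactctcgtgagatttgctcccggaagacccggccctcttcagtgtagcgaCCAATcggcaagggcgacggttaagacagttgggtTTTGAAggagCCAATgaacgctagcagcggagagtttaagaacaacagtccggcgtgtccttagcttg
Cdk1: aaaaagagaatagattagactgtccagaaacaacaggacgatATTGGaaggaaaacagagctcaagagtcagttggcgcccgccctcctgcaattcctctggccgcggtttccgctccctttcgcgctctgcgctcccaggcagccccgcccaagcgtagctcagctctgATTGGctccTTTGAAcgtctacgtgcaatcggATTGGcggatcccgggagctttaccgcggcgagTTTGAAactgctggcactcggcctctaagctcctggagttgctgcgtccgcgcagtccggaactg
Bub1: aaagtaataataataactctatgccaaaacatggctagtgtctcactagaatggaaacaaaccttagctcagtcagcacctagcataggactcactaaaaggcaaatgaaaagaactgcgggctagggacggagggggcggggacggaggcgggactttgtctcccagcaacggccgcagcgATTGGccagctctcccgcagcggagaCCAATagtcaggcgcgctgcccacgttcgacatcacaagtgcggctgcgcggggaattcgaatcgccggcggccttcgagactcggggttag
Ccnb2: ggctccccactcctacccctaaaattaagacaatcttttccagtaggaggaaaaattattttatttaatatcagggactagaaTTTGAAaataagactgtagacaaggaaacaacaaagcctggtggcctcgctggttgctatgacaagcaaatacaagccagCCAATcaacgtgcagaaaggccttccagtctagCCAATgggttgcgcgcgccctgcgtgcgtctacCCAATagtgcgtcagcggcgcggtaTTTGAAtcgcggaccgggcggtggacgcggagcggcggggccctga
Mcm6: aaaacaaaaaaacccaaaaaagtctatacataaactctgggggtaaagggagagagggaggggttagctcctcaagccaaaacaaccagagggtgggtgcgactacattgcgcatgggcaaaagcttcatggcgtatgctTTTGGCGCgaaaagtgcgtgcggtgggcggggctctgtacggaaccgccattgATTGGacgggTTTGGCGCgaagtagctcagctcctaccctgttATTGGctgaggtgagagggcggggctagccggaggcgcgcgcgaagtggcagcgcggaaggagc

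In the Cdc20 window a CHR starts 18 bases before the start site, with CCAAT boxes that start 53 and 8 bases before it. Cdk1 holds CHR matches starting 71 and 15 bases before the start site and 3 CCAAT boxes, and Ccnb2 holds 2 CHR matches and 3 CCAAT boxes. Bub1 holds 2 CCAAT boxes and is the 1 window of the G2 and mitosis genes with no CHR match. Mcm6 holds 2 E2F sites, starting 110 and 47 bases before the start site, 2 CCAAT boxes and no CHR match.

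Of the 30 windows, 17 (56.7%) held a CHR match, against 25.5% of 17492 windows of protein-coding genes and 27.8% of all 27025 windows searched. The CCAAT box was in 22 (73.3%, against 39.0% and 37.9%) and an E2F site in 5 (16.7%, against 2.09% and 1.63%). CHR and CCAAT matches stood together in 15 windows (50%, against 10.3% and 10.9%). By role, 11 of 12 windows of the G2 and mitosis genes and 6 of 18 of the others held a CHR match, and all 5 windows with an E2F site (Cdk2, Mcm3, Mcm5, Mcm6 and Mcm7) belonged to the others. All 10 G2 and mitosis genes with CHR and CCAAT matches together were at least 2-fold higher, and so were both without the pair, Bub1 (no CHR match) and Birc5 (no CCAAT box). Of the 5 other genes with the pair (Cdkn1b, E2f8, Mcm2, Mcm5 and Rrm2) 0 reached 2-fold, with ratios from 1.13 to 1.94, and 2 of the 13 without it did. A match is a run of letters and says nothing about binding in these livers.

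**Figure D3:**
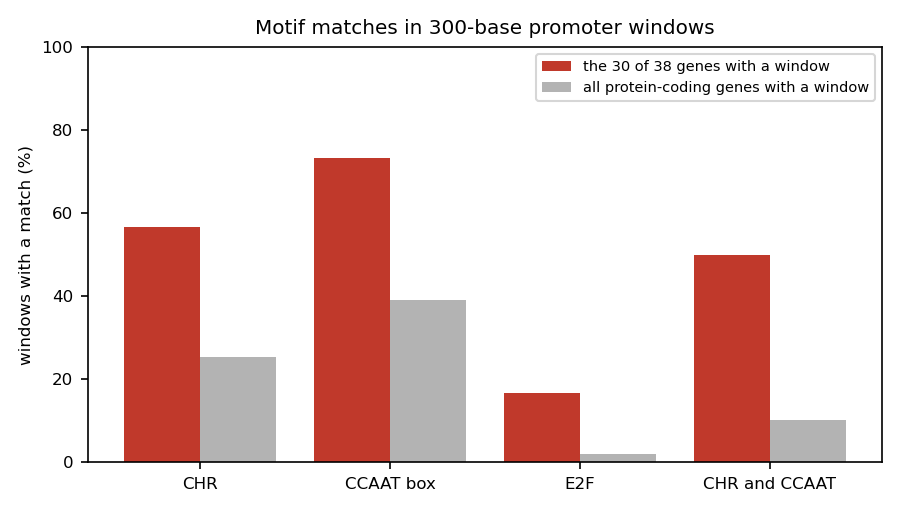
Percentage of 300-base promoter windows that hold each motif, for the 30 of the 38 genes that have a window (red) and for all protein-coding genes with a window (grey). The bars of the cell cycle genes are higher for every motif shown, 56.7% against 25.5% for the CHR and 16.7% against 2.09% for E2F sites.

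The replication helicase was modestly higher. All 6 subunits, Mcm2 to Mcm7, which form the ring that opens the double helix, had more FPKM in the SRSF2-KO-labelled library, and they summed to 14.4 FPKM against 8.76. Their ratios lay in a narrow range, from 1.40 (0.913 to 2.12) for Mcm5 to 2.03 (1.61 to 2.54) for Mcm6, which stood at 3.32 against 1.64 FPKM. The intervals of Mcm2, Mcm3 and Mcm6 lay above 1 and those of Mcm4, Mcm5 and Mcm7 included it. Pcna, the sliding clamp of the DNA polymerases, went the other way, at 11.2 against 13.7 FPKM, a ratio of 0.814 (0.701 to 0.943). This direction depended on scaling, since the log2 ratio of Pcna was -0.27 as deposited, -0.01 after scaling to equal sums (leaving out the 50 most abundant rows) and 0.05 after rescaling to TPM.

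For the enzymes of deoxynucleotide synthesis all 3 counting intervals included 1. Rrm1, the large subunit of ribonucleotide reductase, was at 2.32 and 2.29 FPKM, a ratio of 1.01 (0.823 to 1.24). Rrm2, its cell-cycle-regulated small subunit, was at 3.96 against 2.83 FPKM, a ratio of 1.40 (0.925 to 2.19). Tyms, the thymidylate synthase, was at 5.38 against 5.99 FPKM, a ratio of 0.898 (0.590 to 1.39), and its log2 ratio of -0.13 turned positive under equal-sum and TPM scaling.

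The D-type cyclins, closely related partners of Cdk4 and Cdk6, differed from each other. Ccnd1 (cyclin D1) was at 21.7 FPKM in the SRSF2-KO-labelled library and 9.29 FPKM in the WT-labelled library, a ratio of 2.34 (2.14 to 2.57), on about 1888 and 641 reads, the most behind any ratio above 2 among the 38 genes. Ccnd2 was at 1.58 and 1.44 FPKM, a ratio of 1.10 (0.605 to 1.93). Ccnd3 was at 7.95 against 10.3 FPKM, a ratio of 0.771 (0.607 to 0.984). Its size depended on scaling, since the log2 ratio of Ccnd3 was -0.34 as deposited and -0.02 after rescaling to TPM. With equal sums (leaving out the 50 most abundant rows) it was -0.08. In the WT-labelled library Ccnd3 thus stood a little above Ccnd1, and in the SRSF2-KO-labelled library Ccnd1 stood well above Ccnd3. Cdk4 was at 39.2 against 30.1 FPKM, a ratio of 1.30 (1.17 to 1.46), and Cdk6 at 2.43 against 2.11 FPKM, a ratio of 1.15 (0.653 to 2.15).

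Ccne2 (cyclin E2), which with Cdk2 starts S phase, was the only one of the 38 genes at least 2-fold lower. It stood at 0.772 against 2.01 FPKM, a ratio of 0.385 (0.271 to 0.536), on about 53 and 110 reads. Its paralog Ccne1 was at 1.31 against 1.02 FPKM, a ratio of 1.29 (0.745 to 2.32). Cdk2 was at 2.38 against 2.88 FPKM, a ratio of 0.825 (0.634 to 1.07), and its log2 ratio of -0.20 also turned positive under equal-sum and TPM scaling.

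Of the CDK inhibitors, Cdkn2c (p18), which blocks Cdk4 and Cdk6, was at 5.06 against 2.30 FPKM, a ratio of 2.20 (1.66 to 2.91). Cdkn1b (p27), which restrains Cdk2, was at 10.1 against 8.93 FPKM, a ratio of 1.13 (0.995 to 1.30). The transcription factors of the cycle were scarce in both libraries. E2f1 was at 1.68 against 1.38 FPKM, E2f8, a repressor with roles in hepatocyte polyploidy, at 0.877 against 0.662 FPKM, and Foxm1, an activator of mitotic genes, at 0.460 against 0.269 FPKM. Their ratios of 1.22, 1.32 and 1.71 all had intervals that included 1. For Foxm1, on 17 and 8 reads, the interval of 0.691 to 4.52 runs from a modest decrease to a large increase.

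Counting intervals lay above 1 for 21 of the 38 genes, below 1 for 3 and included 1 for 14. Over all genes with at least 10 estimated reads, 25.1% of intervals lay above 1 and 28.8% below; for those with a mean under 5 FPKM the shares were 29.9% and 13.4%, where 18 of 31 of these genes lay above and 1 below. With the longest protein-coding transcript in place of the median length they lay above 1 for 27 and below 1 for 3, so the calls of 6 genes (Cdk6, Cdkn1b, Foxm1, Mcm4, Mcm7 and Rrm2) depended on the length assumed. Another protein-coding gene overlaps 11 of the 38 genes in RefSeq annotation, and the strandedness of the libraries is not given in the sources used here, so some reads could belong to either. Processed pseudogenes, which Pcna among others has, could also take reads. Elovl1, which overlaps Cdc20, was at 33.46 and 22.04 FPKM, a ratio of 1.52, Cstf1, which overlaps Aurka, had a ratio of 0.984, and Exosc9, which overlaps Ccna2, a ratio of 1.23. Ints8, which overlaps Ccne2, was at 6.15 and 5.52 FPKM, a ratio of 1.11. The ratios of Elovl1, Cstf1 and Exosc9 were smaller than those of Cdc20, Aurka and Ccna2. That of Ints8 was opposite in direction to that of Ccne2. Elovl1 was far more abundant than Cdc20, which stood at 2.18 and 0.218 FPKM. How reads in the overlaps were assigned was not tested. Tspan31, which overlaps Cdk4, was far more abundant than Cdk4, at 118 and 140 FPKM.

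Another 233 genes of the cycle, in 11 lists that hold none of the 38, were set beside them. These lists were chosen with earlier results of these data known. The lists of mitosis held a larger share of genes with high ratios than those of replication, but they also stood lower. Median levels in the WT-labelled library were 0.169 and 0.286 FPKM in the spindle and mitotic entry lists. For origin licensing and for the replication fork they were 1.236 and 1.761 FPKM. In the SRSF2-KO-labelled library the medians of these lists were, in the same order, 0.512, 0.918, 1.602 and 2.391 FPKM. In the list of spindle and kinetochore genes, 23 of the 32 with at least 10 estimated reads were at least 2-fold higher and 1 was lower (median ratio 3.03). Only 5 of these 37 genes reached 1 FPKM. Prc1, which bundles the midzone of the spindle, was at 1.39 against 0.448 FPKM, a ratio of 3.11 (1.73 to 5.63), and Knstrn (kinastrin) at 2.22 against 0.753 FPKM, a ratio of 2.95. At the other end Spc24 and Spc25, both of the Ndc80 complex, were at 7.13 against 5.84 and 2.60 against 2.95 FPKM.

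In the list of mitotic entry and checkpoint genes, 11 of 23 were at least 2-fold higher and 0 lower (median ratio 1.94). Cdca3, a trigger of mitotic entry, was at 3.55 against 0.517 FPKM, a ratio of 6.87 (2.90 to 19.3), and Cdca8 (borealin) at 1.44 against 0.594 FPKM. Wee1, the kinase that holds Cdk1 inactive, was at 2.98 against 5.55 FPKM, a ratio of 0.536 (0.452 to 0.634), and Ccnf (cyclin F) at 3.05 against 5.48 FPKM. Of 7 condensin genes 2 were at least 2-fold higher (median ratio 1.38). Smc4 had the highest log2 ratio of those that reached 1 FPKM, with 0.38, followed by Ncapd2 with 0.29, and Ncaph2 the lowest, with -0.29, below Ncapd3 with 0.18.

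The lists of DNA replication stayed near the background. In origin licensing and firing, 2 of 19 genes were at least 2-fold higher and 1 lower, with a median ratio of 1.04. Dbf4, the activator of the Cdc7 kinase, was at 1.60 against 0.827 FPKM and Gins2, a subunit of the active helicase, at 4.76 against 3.39 FPKM. Mcm10, a replication initiation factor, was at 10.1 against 40.5 FPKM, a ratio of 0.251 (0.233 to 0.269), far above the level of any Mcm2-7 subunit in the WT-labelled library. Gins1 was at 1.90 against 3.09 FPKM. In the replication fork and chromatin assembly list 2 of 30 genes were at least 2-fold higher and 0 lower (median ratio 1.24), or 5 higher and a median of 1.58 after TPM rescaling. Chaf1b, a histone chaperone, was at 1.39 against 0.344 FPKM and Rnaseh2a, which removes RNA from DNA, at 31.0 against 19.2 FPKM, while the small subunits Pole4 (9.98 against 18.5 FPKM) and Rpa3 (5.05 against 8.37 FPKM) were lowest.

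Nucleotide supply genes had a median ratio of 0.883 as deposited, which became 1.08 and 1.13 after equal-sum and TPM rescaling, with 2 of 21 at least 2-fold higher and 1 lower as deposited. Tk1, the thymidine kinase of the salvage pathway, was at 8.91 against 17.9 FPKM, a ratio of 0.498 (0.426 to 0.580), and Ppat, which begins purine synthesis, at 6.45 against 11.8 FPKM. Dck (deoxycytidine kinase) was at 2.65 against 1.33 FPKM and Ctps (CTP synthase) at 1.66 against 0.799 FPKM. In the S phase checkpoint and DNA repair list 3 of 12 genes were at least 2-fold higher and 1 lower, with a median ratio of 1.28. The phosphatase gene Cdc25a was at 1.53 against 0.521 FPKM, a ratio of 2.94 (1.93 to 4.73), and Rad54l, of recombination, at 2.29 against 1.95 FPKM. The checkpoint kinases Atr and Atm had ratios of 0.977 and 0.843.

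Of the other CDK inhibitors and pocket proteins, 4 of 8 were at least 2-fold higher (median ratio 2.10). Cdkn1a (p21), the inhibitor induced by p53, was at 7.68 against 1.23 FPKM, a ratio of 6.27 (4.38 to 9.46), and Cdkn2b (p15) at 1.17 against 0.334 FPKM. Among the pocket proteins, Rb1 was at 3.27 against 3.20 FPKM and Rbl2 (p130), typical of quiescent cells, at 10.3 against 13.1 FPKM, while Rbl1 (p107), itself an E2F target, was at 1.09 against 0.394 FPKM, a ratio of 2.77 (1.89 to 4.12). Higher inhibitor and mitotic gene levels thus stood in the same library. In the list of E2F, MYB, MuvB and MYC factors 4 of 18 were at least 2-fold higher (median ratio 1.10). Myc was at 3.34 against 1.39 FPKM, a ratio of 2.41 (1.72 to 3.53), and E2f3 at 2.51 against 1.19 FPKM, while Mycl1 and Lin54 were lowest at log2 ratios of -0.56 and -0.30.

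The cyclins and CDKs that act outside the core cycle, and the ubiquitin ligases APC/C and SCF, lay close to 1. None of 25 and none of 19 of these genes was at least 2-fold higher or lower, with median ratios of 1.06 and 1.07. In the first list Cdk11b and Cdk5 had the highest log2 ratios, 0.45 and 0.35, and Ccng2 and Cdk18 the lowest, -0.63 and -0.59. In the second, Anapc2 and Anapc4 were highest, at 0.45 and 0.39, and Cdc26 and Anapc13 lowest, at -0.45 and -0.37. The 4 APC/C subunits named here had ratios from 0.721 to 1.40, beside 9.99 for their activator Cdc20. Over all 11 lists, 53 of 214 genes were at least 2-fold higher and 4 lower. The share of 24.8% higher stands beside 13.2% of all genes with at least 10 estimated reads. Among those of them with a mean under 5 FPKM the share was 21.7%. The 214 list genes were not limited to that level, so this share and that of the lists cover unlike sets.

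**Figure D4:**
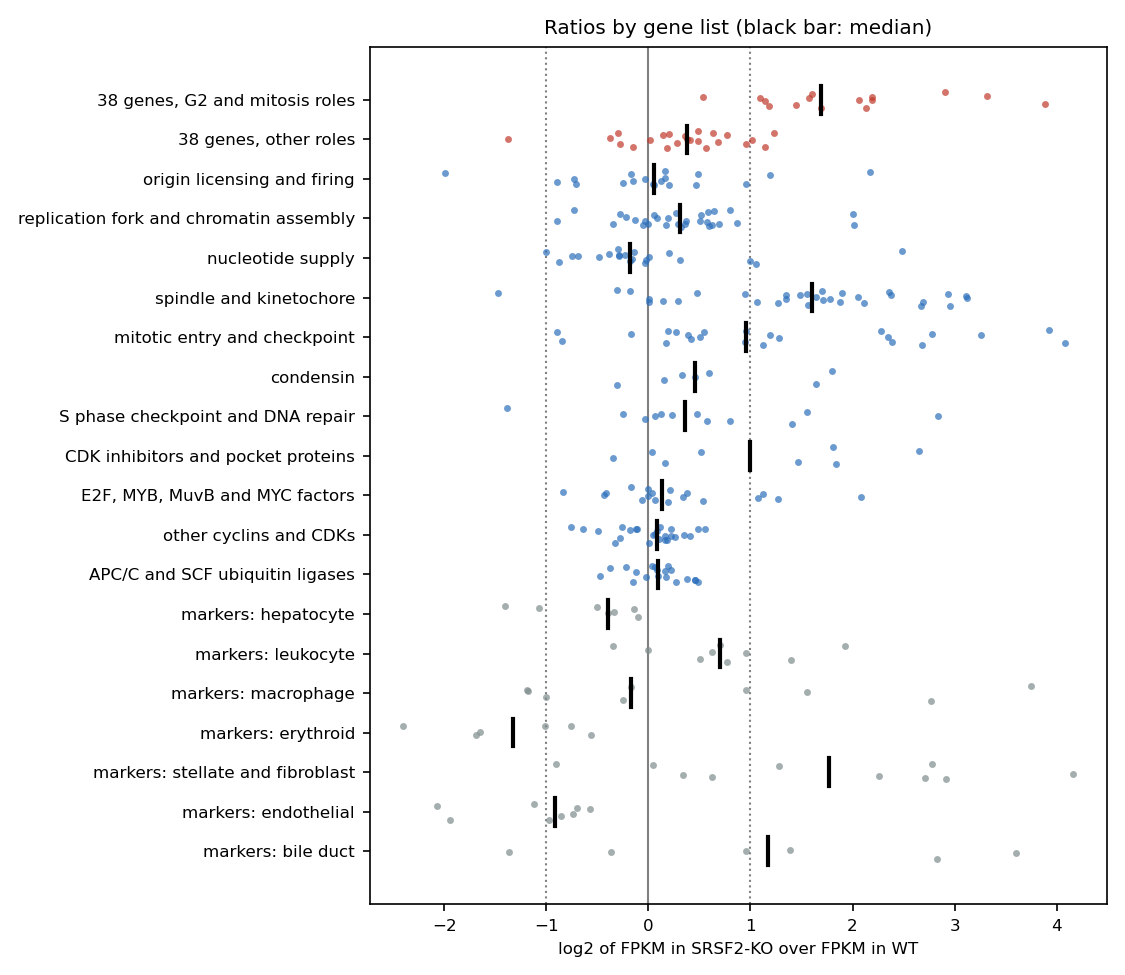
Log2 of FPKM in SRSF2-KO over FPKM in WT for each gene with at least 10 estimated reads and a value above 0 in WT, by list, with the 38 genes in red (split by role), other cell cycle lists in blue, cell type markers in grey and black bars at the medians. The G2 and mitosis genes and the spindle and kinetochore list lie mostly right of 1, the replication lists spread around 0, and marker lists of other cell types lie on either side.

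Markers of several liver cell types differed between the libraries along with the mitotic genes, and their part in those differences was not tested. The stellate cell and fibroblast markers summed to 209 FPKM against 104, with 9 of 10 above a ratio of 1 and a median ratio of 3.60. Col1a1, a fibrillar collagen chain, was at 11.2 against 0.622 FPKM and Lum at 23.8 against 3.15 FPKM, while Reln was level and Lrat lower. The leukocyte markers summed to 116 against 78.3 FPKM, with 7 of 9 higher, led among those at 1 FPKM or more by Coro1a (6.85 against 2.60 FPKM) and Cd52 (54.0 against 27.8 FPKM), and Ptprc, which marks all leukocytes, was at 2.57 against 1.66 FPKM. Lcp1 was level, at 36.27 and 36.39 FPKM. The macrophage markers summed to 143 against 134 FPKM and lay on both sides, with Trem2 and Lyz2 higher and the Kupffer cell genes Cd5l and Clec4f lower.

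The bile duct list summed to 279 against 26.4 FPKM, nearly all of it Spp1 (266 against 21.9 FPKM). Cldn7 and Sox9 had ratios of 7.08 and 2.62, Krt19, a defining duct keratin, was at 0.426 against 1.10 FPKM, and Cftr was listed at 0 in the WT-labelled library. The erythroid markers, which would include dividing red cell precursors, summed to 313.5 against 539 FPKM. None of these 9 was higher, Klf1 and Tfrc had ratios of 0.311 and 0.319, and Gata1 was listed at 0 in both. Most of the sum was Hbb-b1, at 271.4 against 449.3 FPKM, a ratio of 0.604, and Hba-a1 had a ratio of 0.676. The endothelial markers summed to 39.3 against 88.2 FPKM, with 0 of 8 higher and Oit3 and Kdr lowest. Lyve1 and Tek had the highest ratios, 0.672 and 0.617. The hepatocyte markers that were not at 0 summed to 20700 against 31050 FPKM, with all 7 lower as deposited and 4 of 7 after TPM rescaling; Cyp2e1 and Ttr had the lowest ratios and Apob and Ahsg the highest.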

How the data were processed

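RNA was measured in 1 liver library per genotype. FPKM were computed by the authors, and the deposited table gives 1 value per gene row and library. Alignment tools and builds per the submitters' processing notes are Bowtie 0.12.2 and mm9. The sources used here do not give the program that estimated FPKM, the annotation or strandedness. Columns were assigned by name, and a repeated symbol was represented by its row with the highest mean. Members and lists were chosen with earlier results of these data known.

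Depth was estimated from steps of whole reads in single-transcript genes (GENCODE M21, 1000 to 8000 bases), with a length offset of 180 bases. Of 467 and 434 low values, 71.9% and 75.1% came within 0.1 reads of a whole number. Reads per gene used the median protein-coding transcript length and were not computed under 400 bases. Intervals are Clopper-Pearson. FPKM sums were 523254 (SRSF2-KO) and 666262 (WT), so ratios carry an offset: equal-sum, TPM and median scaling move SRSF2-KO by 0.29, 0.35 and 0.07 log2 units.

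The measure chosen first was the log2 ratio with a pseudocount of 1 and a minimum of 1 FPKM. The plain ratio of FPKM, with at least 10 estimated reads, was added after the data were seen. Members are named in full, and each list by its 2 highest and 2 lowest log2 ratios that reached 1 FPKM. Genes named outside this rule, such as Rbl1, Cftr, Gata1 and Il6, were chosen after their values were seen. Scripts (Python 3.11.15, pandas 2.3.3, scipy 1.17.1) were tested on simulated data.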

Additional observations from a re-analysis of the deposited data

How the results depend on the processing

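No paired analysis was possible because each group has 1 library. For the 38 genes, counts at least 2-fold higher went from 5 of 32 to 11 (1 lower) with a pseudocount of 0.1, 1 with a pseudocount of 3, 1 of 8 at 5 FPKM, 3 of 21 with 1 FPKM in both libraries, 14 of 37 after TPM rescaling and 17 of 38 (1 lower) with the plain ratio, the last chosen after seeing the data. The share over all genes was 5.49% as first computed and 13.2% with the plain ratio. It was not computed for the other settings, so counts under them, also those of other cell cycle genes below, have no background. The median log2 ratio, 0.42 as first computed, was 0.57 and 0.27 with those pseudocounts, 0.27 at 5 FPKM, 0.77 after TPM rescaling, 0.60 with equal sums (leaving out the 50 most abundant rows) and 0.73 with the plain ratio. TPM and equal-sum scaling moved the median of all rows to 0.28 and 0.21. Genes above 0 numbered 5 of 8 at 5 FPKM and 17 of 21 with 1 FPKM in both libraries. Of the 32 genes, Cdk2, Pcna and Tyms changed sign under TPM and Cdk2 and Tyms under equal sums, and 0 did so under the other settings. Other cell cycle genes at least 2-fold higher numbered 2 of 139 as first computed, 11 and 1 with the pseudocounts, 1 at 5 FPKM, 1 with 1 FPKM in both libraries, 17 with TPM, 5 with equal sums and 53 (4 lower) with the plain ratio. Their median of 0.06 became -0.031 at 5 FPKM, 0.41 with TPM, 0.32 with equal sums and 0.22 with the plain ratio. Why the counts and medians moved was not tested beyond the changed filter or scale itself. Depth limits the low genes most: Bub1 rests on about 59 and 3 reads.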

Other observations

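Of 18 genes for liver mitogens and their receptors, 14 had at least 10 estimated reads, 4 of these were at least 2-fold higher in the SRSF2-KO-labelled library and 2 lower, with a median ratio of 1.495. After TPM rescaling these counts were 7 and 1 (median 1.90), where the background was 19.3% and 3.10%, against 13.2% and 5.51% as deposited. Btc (betacellulin), a ligand of the EGF receptor, was at 2.89 against 0.561 FPKM, a ratio of 5.15 (counting interval 3.51 to 7.99). Cyr61, a matricellular protein and YAP target, was at 16.5 against 6.55 FPKM, a ratio of 2.52, whereas Ctgf, another YAP target, was at 2.93 against 6.05 FPKM, a ratio of 0.484. Il6ra, the receptor of interleukin 6, was at 6.45 against 18.98 FPKM, a ratio of 0.340 (0.314 to 0.368). Il6 was listed at 0 in both libraries.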
